A study of Bos taurus with 2 samples.

Results

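The mitochondrial ribosomal protein genes were taken as every probe, other than controls, whose gene name in the array design starts with MRPL or MRPS followed by a digit. This gave 75 genes with 143 probes on 158 spots of each array, of 31911 gene names and 51280 probes in all. MRPL genes, named for the large subunit, made up 46 genes with 94 probes, and MRPS genes, named for the small subunit, made up 29 genes with 49 probes. The rule reads names only and uses no measured value.

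Both samples were spermatozoal total RNA from HF crossbred breeding bulls, all male, with 1 array for bulls of high fertility and 1 array for bulls of low fertility. Each label names bulls, in the plural, without their number, their age or how fertility was scored. RNA was copied with an oligo-dT primer and labelled with Cy3, so transcripts with a poly(A) tail were measured. The comparison asked how transcript levels in sperm differ between bulls of high and low fertility.

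Mitochondrial ribosomes translate the few proteins that the mitochondrial genome encodes, all of them subunits of the respiratory chain and ATP synthase. Their ribosomal RNAs are mitochondrial transcripts, whereas every protein of both subunits is encoded in the nucleus, made by cytosolic ribosomes and imported. Some of these proteins descend from bacterial ribosomal proteins and the others are found only in mitochondrial ribosomes. Ejaculated sperm keep mitochondria wound around the midpiece of the tail and carry RNA that is largely left over from spermatogenesis.

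Some of the probes that carry the larger differences described here, and pairs of probes that disagree, are given here. They read 5′ to 3′ as they stand in the array design, with positions on build HGSC Btau_3.1. The MRPL9 probe spans an exon junction on the plus strand of chr3:20533269-20535034, and the MRPS17 probe lies at chr25:29481945-29482004 on the plus strand. The MRPL38 probes lie on the plus strand, the first spanning a junction at chr19:57442356-57442581 and the other pair at chr19:57443926-57443985 and chr19:57443949-57444008. The MRPS33 probe spans a junction on the minus strand of chr4:107937047-107940836, and the MRPL12 pair spans one on the minus strand of chr19:52607534-52607690 and chr19:52607527-52607683. Each was picked among probes with at least 1 forward reading frame without a stop codon. The MRPS2 probe and the brighter MRPS36 probe lack such a frame and are not shown. Whether a printed probe lies in coding sequence or in a UTR was not annotated here. Capitals mark the bases that both probes of an overlapping pair share.
MRPL9 at transcript base 484: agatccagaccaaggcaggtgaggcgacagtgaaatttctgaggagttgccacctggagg
MRPS17 at transcript base 350: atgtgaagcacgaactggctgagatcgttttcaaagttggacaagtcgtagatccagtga
MRPS33 at transcript base 276: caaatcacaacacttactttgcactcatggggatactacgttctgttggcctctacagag
MRPL38 at transcript base 643: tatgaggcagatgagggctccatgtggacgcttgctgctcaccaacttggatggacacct
MRPL38 at transcript base 902: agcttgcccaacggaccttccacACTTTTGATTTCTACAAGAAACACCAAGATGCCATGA
MRPL38 at transcript base 925: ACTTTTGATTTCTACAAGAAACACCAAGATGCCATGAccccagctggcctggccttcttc
MRPL12 at transcript base 496: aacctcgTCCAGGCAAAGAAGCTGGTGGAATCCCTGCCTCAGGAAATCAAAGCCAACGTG
MRPL12 at transcript base 503: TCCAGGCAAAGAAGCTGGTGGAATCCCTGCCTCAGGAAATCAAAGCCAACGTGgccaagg

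The scanner software flags spots that are well above background. Across the whole arrays 27.6% of probes passed this flag on both, and no spot was saturated. The dimmest probe with that flag had a signal of 22.6 on the array of high-fertile bulls and 30.3 on the other. A gene is called measured here if at least 1 of its probes had the flag on both arrays, which held for 11619 gene names (36.4%). A probe with repeat spots counted as flagged on an array only if all of its spots there had the flag. With 1 array per group there was no replicate check and no test was possible, so the number of arrays limits the precision and each difference describes this pair of arrays. Repeat spots of one probe spread with an SD of 0.28 (log2 difference, 3038 probes), and separate probes of one gene with an SD of 0.42 (1851 genes). Both spreads are technical and hold no variation between bulls. Of 16 sperm and late spermatid markers 9 were measured, among them the protamine PRM1, the transition proteins TNP1 and TNP2 and the tail protein ODF1, while PRM2, AKAP4, CRISP2, SMCP, TSSK6, SPEM1 and SPATA18 were not. Markers of other cells were measured too.

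The plot of detection shows how much of the mitochondrial ribosome was seen. Of the 75 genes 32 (42.7%) were measured, 2 were well above background on the high-fertile array only, 5 on the low-fertile array only, and 36 on neither. Of all gene names 36.4% were measured, 4.32% passed on the high-fertile array only and 4.31% on the other only, and of the 12904 gene names with a curated RefSeq transcript 43.4% were measured, or 42.9% of those with 1 to 5 probes. The share for the mitochondrial ribosome thus lay close to that of curated genes in general. For the cytosolic ribosomal proteins, in contrast, 76 of 82 (92.7%) were measured, with 3.70 probes per gene against 1.91 for the mitochondrial ones.

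Detection is given next by subunit, with no test of the difference between them. Of the MRPL genes 23 of 46 (50%) were measured and of the MRPS genes 9 of 29 (31.0%). MRPL genes had 2.04 probes per gene and MRPS genes 1.69, and the part of probe number in these shares was not tested. Counted by probe, 31.9% of MRPL and 22.4% of MRPS probes passed on both arrays, against 27.6% of all probes. Among MRPL genes 14 of 29 of bacterial families and 9 of 17 mitochondrion-specific ones were measured. Among MRPS genes these counts were 6 of 16 and 3 of 13. MRPS18A and MRPS30 sit in the large subunit in mammalian structures, and MRPS36 was later placed in the 2-oxoglutarate dehydrogenase complex. With these genes assigned by structure, 24 of 48 large-subunit genes (50%) and 8 of 26 small-subunit genes (30.8%) were measured.

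**Figure D1:**
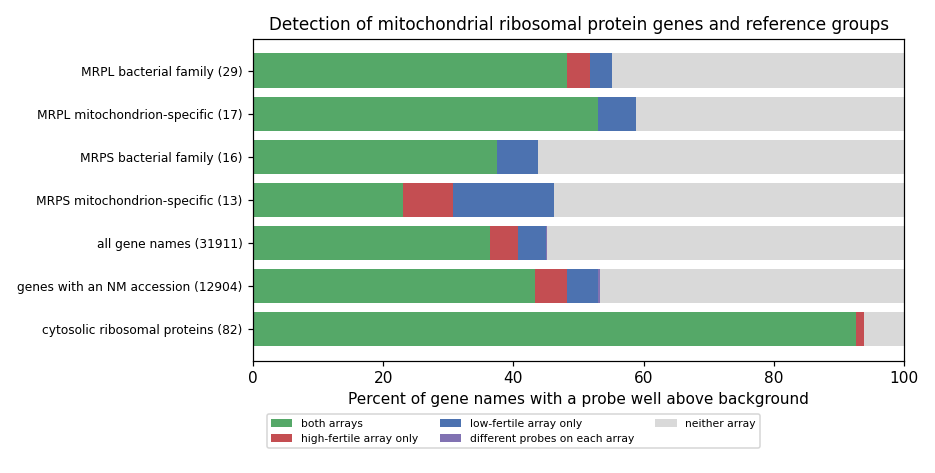
Percent of gene names (x axis) with a probe well above background on both arrays, on 1 array or on neither, by group, with the number of gene names in brackets. The green segment reaches 48.3% and 52.9% in the MRPL groups, 37.5% and 23.1% in the MRPS groups and 92.7% for cytosolic ribosomal proteins.

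Among the genes not measured, MRPS30 was far from the flag, with signals of 4.90 on the high-fertile array and 6.53 on the low-fertile one, and both probes of MRPL42 stayed dim. Neither probe of DAP3, the GTP-binding protein of the small subunit that has its own name, had the flag on either array. MRPS18C, a paralogue of MRPS18A and MRPS18B, stood at the limit: 1 of its 2 spots was well above background on the high-fertile array and none on the low-fertile array. A missing flag gives only an upper limit on a signal, and says nothing of whether the transcript is absent. In bulk RNA of this kind, fewer cells with a transcript and less of it per cell cannot be told apart.

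Most measured members were dim. Of the 32, 9 had a signal below 2 times the lowest well-above-background value on at least 1 array, and 11 reached 4 times that value on both. These counts were not made over all measured genes, so dimness is not shown to be particular to these members. Signals are given as the processed signals of each array in linear units, averaged over a gene's measured probes. Differences are high-fertile minus low-fertile on the log2 scale after scaling each array to the 75th percentile of measured probes, which was 148.6 for the high-fertile array and 186.3 for the low-fertile one. Equal signals on both arrays therefore stand for a positive difference.

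**Figure D2:**
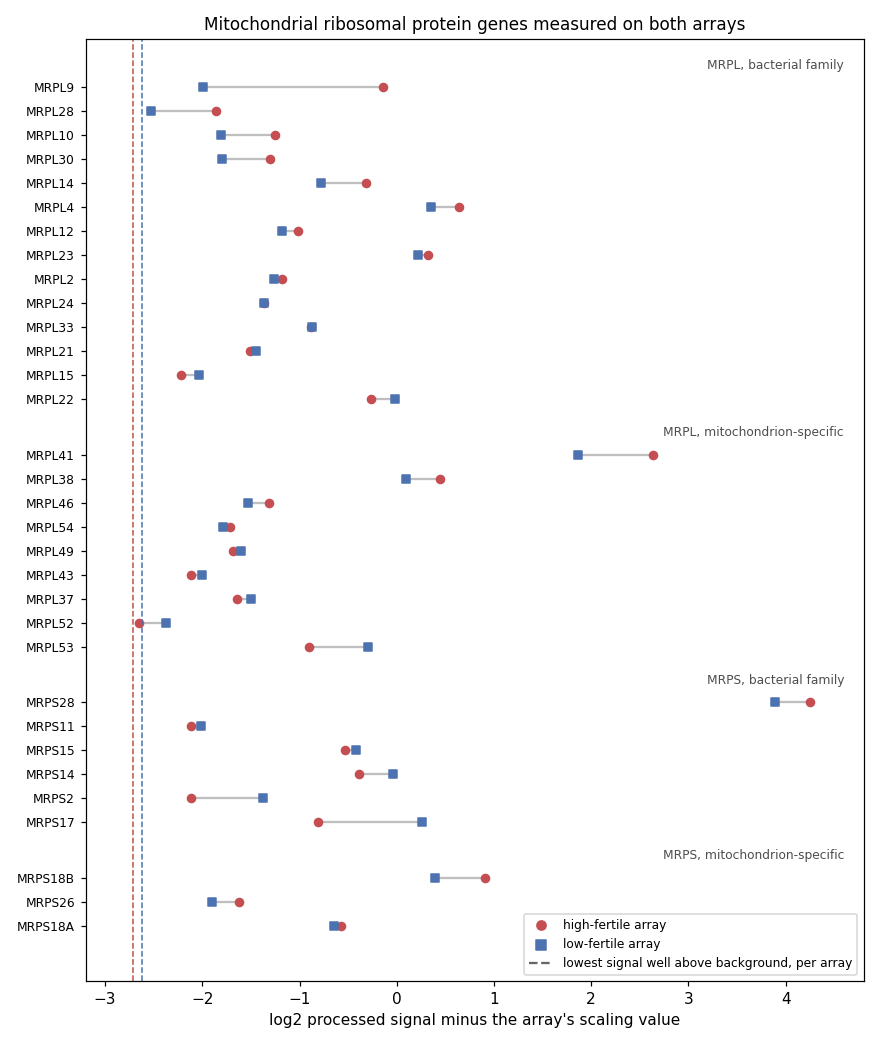
Level of the 32 measured members on each array (x axis, log2 processed signal minus the log2 of the array's 75th percentile of measured probes), in order of difference within subunit and family. Circles stand for the high-fertile array and squares for the low-fertile one, 1 array each, and the dashed lines for the lowest probe signal well above background on each. Most pairs lie close together, and MRPL9, MRPS17 and MRPL41 lie farthest apart.

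The mitochondrial ribosomal protein genes as a group lay near 0. Of the 32 measured members 18 were higher and 14 lower on the high-fertile array, with a median difference of 0.08, against 0.00 over all measured genes, and 24 (75%) differed by less than 0.5, against 78.3% of all genes. Only MRPL9 was at least 2-fold higher, where 1.88% of all measured genes were, and only MRPS17 at least 2-fold lower, where 2.44% were. These shares, 1 of 32 each way, lie near the background. At 1.5-fold, MRPL41 and MRPL28 joined MRPL9, making 3 of 32 against 7.56% of all genes, and MRPS2 and MRPL53 joined MRPS17, making 3 of 32 against 8.77%. For 9 of the 32 the difference exceeded 2 times the error that the scanner software gives for the spots, whose median over members was 0.22. Of all measured genes 24.5% did so. The cytosolic ribosomal proteins had a median of -0.15 with 25 of 76 higher, and 2 and 3 of them were at least 2-fold higher and lower.

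Set against each other, the medians of the subunits lay on either side of 0 and close to it. The median difference was 0.08 for the 23 MRPL genes, with 14 higher and 9 lower, and -0.10 for the 9 MRPS genes, with 4 higher and 5 lower. The MRPL median lay 0.19 above the MRPS median, and with 1 array per group this gap could not be tested. With assignment by structure the medians were 0.08 over 24 and -0.11 over 8 genes. The sign of a subunit's median depended on the processing: with spike-in scaling, which shifted the median of all genes to -0.60, the MRPL median was -0.52 and the MRPS median -0.70. With no filter on dim probes the MRPL median was -0.05, and with the deposited matrix values the MRPS median was 0.00093.

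Split by family, the medians within the MRPL and within the MRPS genes differed, on few genes. This split goes by gene name, so MRPS18A counts with the MRPS genes although it sits in the large subunit. Among MRPL genes the 14 of bacterial families had a median of 0.13, with 10 higher, and the 9 mitochondrion-specific ones had -0.08, with 4 higher. Among MRPS genes the order was the other way round: 6 genes of bacterial families had a median of -0.23, with 1 higher, and the 3 mitochondrion-specific genes were all higher, with a median of 0.28. The families follow the systematic names of the proteins, by which MRPS18A and MRPS18B count as mitochondrion-specific although they are paralogues of the bacterial-family MRPS18C. With both counted as bacterial, a choice made after seeing the data, that group had a median of -0.11, with 3 of 8 higher, and MRPS26 alone remained in the other. With spike-in scaling all 9 MRPS genes and 20 of 23 MRPL genes were lower, and 3 members in all were higher.

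**Figure D3:**
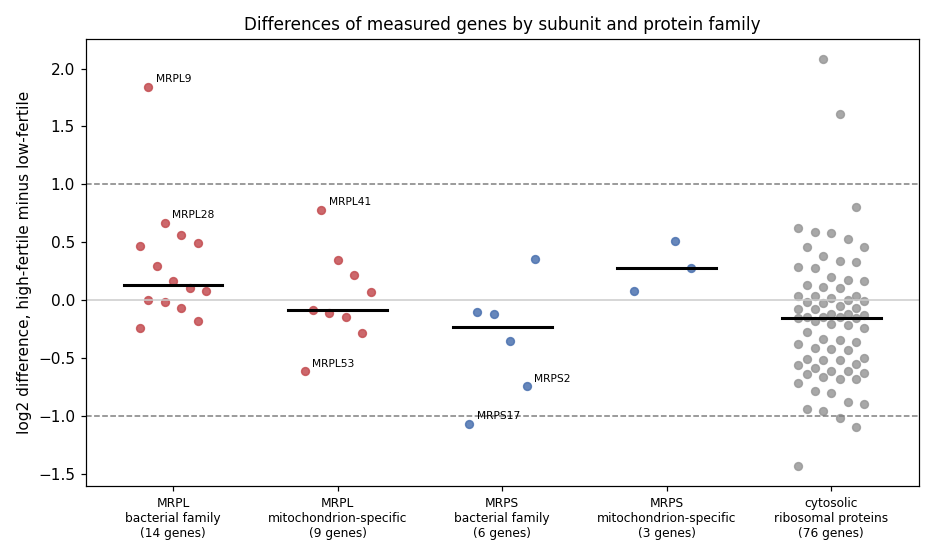
Log2 difference, high-fertile minus low-fertile (y axis), of each measured gene by subunit and protein family, with cytosolic ribosomal proteins beside them. Points are genes, black bars the medians, and dashed lines a 2-fold difference. MRPL9 at 1.85 and MRPS17 at -1.07 are the mitochondrial members beyond the lines.

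Among large-subunit proteins of bacterial families, MRPL9 stood out. Its junction-spanning probe gave a signal of 134.4 on the high-fertile array and 46.9 on the low-fertile one, a difference of 1.85 or 3.59-fold, with a spot error of 0.29. The level was higher in the high-fertile array by more than 2 times that error and by more than the spread between probes. The other MRPL9 probe lacked the flag on both arrays, at signals of 8.71 and 12.5, so the difference rests on 1 spot per array. It was 1.03 with normexp background correction and 0.82, under 2-fold, when the dim probe was averaged in. The normexp setting adds an offset of 50 to every signal, which by construction draws differences of dim probes toward 0.

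MRPL28 and MRPL10, the latter at the base of the stalk that recruits translation factors, were next. MRPL28 had signals of 40.8 and 32.3 and a difference of 0.67, from a probe near the background limit of both arrays, and 0.28 with normexp or 0.27 with no filter on dim probes. The MRPL10 probes had 90.9 against 79.3 and 43.0 against 35.7, differences of 0.52 and 0.60 with a mean of 0.56 (SD 0.05, n = 2 probes). Both MRPL10 probes were higher in the high-fertile array, closer to each other than probes of one gene usually were. With normexp the mean was 0.24. MRPL30 gave 60.2 and 53.7, a difference of 0.49, or 0.19 with normexp and 0.18 with no filter. MRPL14 had 2 spots of one probe with differences of 0.51 and 0.44, a mean of 0.47. Its other probes each passed the flag on 1 array only, and 1 of them maps to the opposite strand. These differences were under 1.5-fold for MRPL10, MRPL30 and MRPL14.

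MRPL12 forms that stalk itself. Its measured probe had signals of 73.3 on the high-fertile array and 82.0 on the low-fertile one and a difference of 0.17, within the spread of repeat spots. This probe was designed on an Ensembl transcript and lies 9.26 kb from the probes of the RefSeq transcript. The overlapping pair of MRPL12 probes printed with the sequences belongs to the RefSeq transcript and had dim signals of 20.7 and 22.7 for the first probe and 22.4 and 33.6 for the second. The second alone passed the flag, and on the low-fertile array only, although the probes are shifted by 7 bases. Members so near the background can change call between nearly identical probes.

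The lowest bacterial-family MRPL genes differed little. MRPL22, a protein that lines the exit tunnel, had signals of 123.8 and 183.6 and a difference of -0.24. MRPL15 had 32.0 and 45.4 and a difference of -0.18, or -0.0094 with normexp. Both lay within the spread of repeat spots. The remaining measured ones, MRPL2, MRPL4, MRPL21, MRPL23, MRPL24 and MRPL33, differed by -0.07 to 0.29. The MRPL23 mean of 0.10 includes a probe whose mapped strand is opposite to that of the RefSeq-based probe, which alone gave 0.20.

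Of the mitochondrion-specific large-subunit proteins, MRPL41 was brighter than background by a wide margin. Its measured probe gave 925.9 on the high-fertile array and 676.7 on the low-fertile one, a difference of 0.78 or 1.72-fold. The second MRPL41 probe, with signals of 18.1 and 35.5, passed the flag on the low-fertile array only and pointed the other way, at -0.65. With no filter the mean over both was 0.06, and with spike-in scaling the measured probe gave 0.18. The direction of MRPL41 thus rests on 1 probe.

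MRPL38, a protein of the central protuberance, had the most measured probes of any member, 3 of 4. The probe at base 643 had 127.1 against 78.8 and a difference of 1.02. The probe at base 925 had 39.8 against 49.2 (0.02), and one at base 1313 had 1623 against 2020 (0.01). Only the first, which spans a junction, was higher in the high-fertile array, and the mean of 0.35 (SD 0.58, n = 3 probes) hides this disagreement. The probe at base 902, which shares 37 bases with that at 925, lacked the flag on both arrays. With the brightest probe alone MRPL38 gave 0.01.

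MRPL53 was the lowest large-subunit gene. Its signals were 79.4 on the high-fertile array and 152.2 on the low-fertile one, a difference of -0.61 from 2 spots of one probe with -0.52 and -0.70. Both spots were lower in the high-fertile array by more than the spread of repeat spots, while 3 further probes of MRPL53 lacked the flag on both arrays. With normexp MRPL53 gave -0.39. The measured probe shares 16 bases in a row with a probe of another name. MRPL52 had 23.6 and 36.0, a difference of -0.28, with the first signal just above the lowest value that counted as above background, and -0.02 with normexp. MRPL37 gave 0.05 and -0.34 from 2 probes, a mean of -0.14 (SD 0.27, n = 2 probes). The other measured ones, MRPL43, MRPL46, MRPL49 and MRPL54, differed by -0.11 to 0.22.

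In the small subunit, MRPS17, a ribosomal RNA-binding protein of the body of the subunit, was the lowest member. The probe at base 350 gave 50.2 on the high-fertile array and 178.6 on the low-fertile one (-1.5), and the probe at base 572 gave 143.9 and 279.3 (-0.63). Both were lower in the high-fertile array, by different amounts. The mean was -1.07, or 2.09-fold lower (SD 0.62, n = 2 probes). It passed 2-fold only narrowly: it was -0.97 with the 75th percentile over all probes, -0.96 with the matrix values, -0.69 with normexp and -0.63 with the brightest probe or the stricter filter.

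MRPS2 and MRPS14 leaned the same way as MRPS17. MRPS2 had signals of 34.2 and 71.8 and a difference of -0.74 from its single probe, with a spot error of 0.35. With normexp, whose offset draws differences of dim probes toward 0, MRPS2 gave -0.13. MRPS14 had 113.4 and 181.3 and a difference of -0.35, or -0.19 with normexp and -0.10 with no filter. As scaled, MRPS2 differed by more than 2 times its spot error and MRPS14 did not. MRPS15 had 102.9 and 139.7 and a difference of -0.11. MRPS11, on the platform of the subunit, was measured by 2 probes that share 51 bases and gave -0.09 and -0.11. The second value is a mean of 2 repeat spots that disagree, at -0.45 and 0.23. Overlapping probes of this kind repeat one measurement and are not independent.

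MRPS28 was the one bacterial-family MRPS gene that was higher. Its single probe gave 2820 on the high-fertile array and 2764 on the low-fertile one, far above background, with a difference of 0.36, less than 2 times its spot error of 0.20. With quantile normalization it was 0.07 and with loess 0.05. Among the mitochondrion-specific genes, MRPS18B had 278.0 and 243.8 and a difference of 0.52. It exceeded 2 times its spot error of 0.21. MRPS26 had 48.2 and 49.8, a difference of 0.28, and MRPS18A had 100 and 118.8, a difference of 0.08. MRPS18C, the third paralogue beside MRPS18A and MRPS18B, was not measured.

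**Figure D4:**
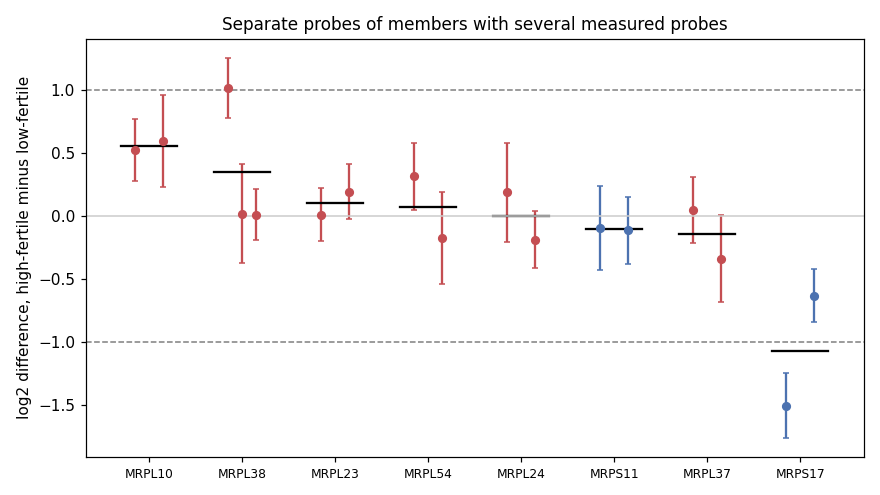
Log2 difference, high-fertile minus low-fertile (y axis), of each measured probe for the 8 members with several. Points are probes with the spot error of the scanner software, red for MRPL and blue for MRPS, short lines are gene means, and dashed lines mark a 2-fold difference. The probes of MRPL10 and of MRPS11 lie together, while those of MRPL38 and MRPS17 lie apart.

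Separate probes bear on how far a single one can be trusted. Of the 32 measured members 24 rested on 1 probe. Among the 8 others, 9 pairs of probes on one transcript were measured on both arrays, and 6 of these pairs had the same sign. MRPL23 gave no pair, since its 2 measured probes come from different sequence records, with differences of 0.01 and 0.20. All pairs from MRPL38 count among the 6, although its probes at 1.02, 0.02 and 0.01 share a sign only narrowly. The MRPS11 pair, also among the 6, shares 51 bases. The others of the 6 are from MRPL10 and MRPS17, and the pairs of MRPL24, MRPL37 and MRPL54 had opposite signs. Over the 8 genes the SD between probes was 0.38, near the 0.42 of all genes. All 68 pairs of member probes on one transcript were split by whether their ends share an exact run of bases. The same detection call was found in 4 of 7 pairs with such a run and in 36 of 61 pairs without. Pairs without an exact run include MRPL19 and MRPL43 probes that start 11 and 15 bases apart, all on neither array. The counts thus do not cleanly compare overlapping with separate probes. In 11 genes some probes of a curated RefSeq transcript were measured and others were on neither array. The Ensembl transcript of MRPL12, measured at base 912 and not at base 732, falls outside these 11 genes. Among the 11 genes the measured probe lay nearer the 3′ end in 3, nearer the 5′ end in 6 and was interleaved in 2.

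For 7 members only 1 array was well above background, so a bound is given, or a plain ratio where the dim probe's own signal was the divisor. After scaling, the bright signal was divided by the dim probe's own signal or by the dimmest flagged signal of that other array, whichever was higher. MRPS36, the protein since placed in the 2-oxoglutarate dehydrogenase complex, had a signal of 111.8 on the high-fertile array and 34.4, not well above background, on the low-fertile array. That dim signal lies above the dimmest flagged one of 30.3, so the 4.07-fold higher level is the probe's own ratio and no lower bound. Its spot error was 0.37. Of genes on the high-fertile array only, 6.88% had a bound of at least 2-fold. The second MRPS36 probe was dim on both arrays.

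In the other direction MRPS33 had 20.4, not well above background, on the high-fertile array and 74.2 on the low-fertile array, a level at least 2.62-fold lower for the high-fertile bulls. Of genes on the low-fertile array only, 16.3% had a bound of at least 2-fold. The other 3 probes of MRPS33 had the flag on neither array, and 1 of them maps to the opposite strand. The remaining bounds were smaller. MRPL20 was at least 1.91-fold higher. MRPS12, a protein of the decoding centre, was at least 1.302-fold lower by one probe, while its other probe, with the flag on neither array, had the higher signal on the high-fertile array, 18.6 against 8.36. MRPL27, MRPS27 and MRPL48 were at least 1.11-fold, 1.44-fold and 1.58-fold lower, the last from 2 probes that both passed on the low-fertile array only. Of these 7 members 5 were on the low-fertile array only, 6.67% of the 75 genes against 4.31% of all gene names. They were 2 of 46 MRPL and 3 of 29 MRPS genes, and this split was not tested.

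The transcripts that serve the mitochondrial ribosome were read from related lists. Of 7 ribosomal proteins under other names 3 were measured, and AURKAIP1 (0.21), GADD45GIP1 (0.11, SD 0.29, n = 2 probes) and PTCD3 (0.01) were all close to 0. Of 14 translation factors on the array 2 were measured: the release factor family member MTRFR differed by 0.21 and the recycling factor GFM2 by -0.41. The elongation factors TUFM and TSFM lacked the flag on both arrays. Translation factors were thus measured in 14.3% of cases, against 42.7% of the ribosomal proteins and 36.4% of all gene names. The share was 43.4% for gene names with a curated RefSeq transcript, and none of these differences was tested.

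Assembly factors and enzymes that modify the ribosomal RNA were measured for 9 of 25 genes (36%), near the 36.4% of all gene names. Their median was 0.08, with none at least 2-fold higher and 1 lower. METTL15, a methyltransferase of the small-subunit ribosomal RNA, had signals of 43.8 and 134.9 and a difference of -1.30 (SD 0.70, n = 2 probes). MPV17L2, an inner membrane protein of ribosome assembly, had 648.9 and 433.4 and a difference of 0.91 (SD 0.09, n = 2 probes). METTL15, like MRPS17, was lower in both of its probes, and both MPV17L2 probes were higher.

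Mitochondrial aminoacyl-tRNA synthetases and related amidotransferase genes, which charge the tRNAs, were measured for 9 of 20 (45%), with a median of 0.02. AARS2 was lower with 26.5 against 70.2 (-1.08), from 1 of 5 probes and with 3 of the 8 spots around it also at least 2-fold apart. YARS2 had a mean of 0.86 with an SD of 1.37 over 2 probes, larger than the mean. Of 19 genes of mitochondrial transcription and RNA processing 6 (31.6%) were measured. FASTKD3, an RNA-binding protein of mitochondria, was higher with 7030 against 4208 (1.07, 1 probe), and GRSF1, which organises mitochondrial RNA granules, had 55.3 against 99.3 (-0.52). Over these 5 lists 1 gene was at least 2-fold higher and 2 were at least 2-fold lower, of 29 measured, against 1.88% and 2.44% of all genes.

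Levels of other cells' markers are given beside these results. Of 10 leukocyte markers 8 were measured, with a summed signal of 2721 on the high-fertile array and 3509 on the low-fertile one, and a median difference of -0.07. CD3E and CSF1R were not well above background, and the others ranged from -0.51 for PTPRC, the common leukocyte antigen, to 0.61 for the integrin ITGB2, with 3 higher and 5 lower. Of 6 epithelial markers 3 were measured, with sums of 408.0 and 416.1, and all 3 were higher after scaling, with a median of 0.34. Of 6 testis somatic markers 5 were measured, with sums of 731.3 and 897.6 and a median of -0.05. The 9 sperm markers summed to 867.4 and 931.0 with a median of 0.19. They moved in opposite directions: PRM1 differed by -1.10, TNP2 by 1.22 and the late spermatid gene ACTL7B by 1.19. For epididymal and accessory gland genes, 2 of 6 measured, the sums were 78.2 and 135.9 and the median -0.42. Genes of mitochondrial ribosomal proteins are not particular to one of these cell types, and the part of other cells in the differences was not tested.

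**Figure D5:**
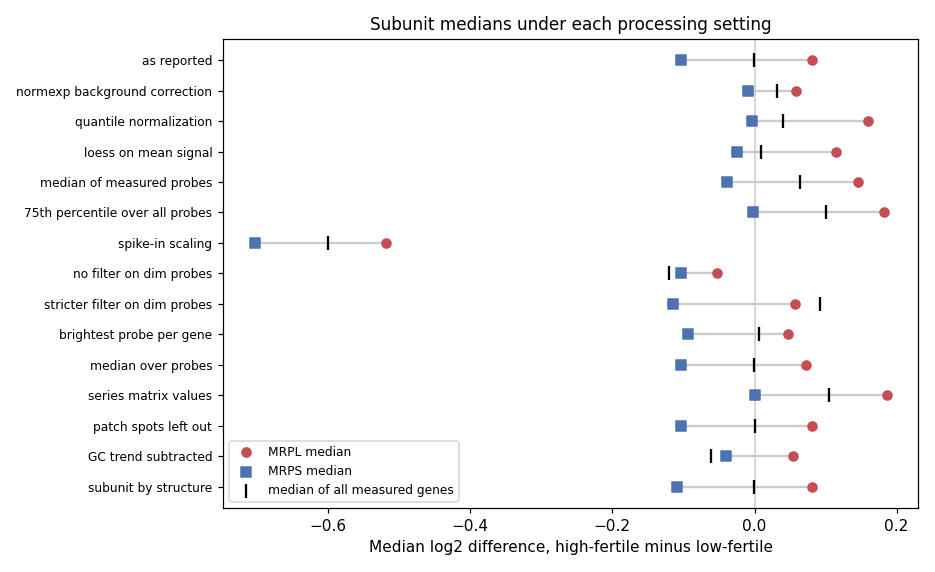
Median log2 difference, high-fertile minus low-fertile (x axis), of MRPL genes (circles) and MRPS genes (squares) under each of 15 processing settings, with the median of all measured genes as a tick. The MRPL median lies right of the MRPS median in each, by 0.05 to 0.19, and spike-in scaling moves all of them left.

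In the 15 processing settings the MRPL median stayed above the MRPS median, by 0.05 with no filter on dim probes to 0.19. Settings that shift all genes alike leave this gap unchanged by construction, so they do not count as separate repeats. Relative to the median of all genes, MRPL genes were 0.08 higher and MRPS genes 0.10 lower. With the stricter filter on dim probes, which kept 6 MRPL and 5 MRPS genes, MRPL genes lay 0.04 below that median. MRPS genes lay 0.02 above it both with no filter and with the GC trend subtracted.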

How the data were processed

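Total RNA of spermatozoa was measured on 1 array for high-fertile and 1 for low-fertile bulls, grouped by the fertility entry of the labels. The deposited scanner tables hold intensities in 1 colour. Agilent Feature Extraction 11.5.1.1 wrote them, per the file headers, and its processed signal is background-subtracted. The design places probes on HGSC Btau_3.1. The deposited flags for spots above background, saturated or outlying were used as they stand. The deposited series matrix holds log2 values that equal the log2 processed signal plus a constant per array (-5.12 and -5.55, within 0.01 for 98.6% of probes on each). Its column medians are -1.43 for the high-fertile array and -1.37 for the low-fertile one, and its direction is that of expression. The normalization the authors used beyond this constant is not given in the sources used here.

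Control and outlying spots were left out, log2 processed signals of repeat spots were averaged per probe, and each array was scaled to its 75th percentile over probes well above background on both arrays, since fewer than 50% of probes were. A gene's difference is the mean over its probes with that flag on both arrays, counted at 2-fold. Depth here means signal over background. All 143 member probes kept their symbol when looked up in RefSeq's gene table (ARS-UCD2.0), which served only for naming. Spots were compared with their 8 neighbours: no member spot had at least 4 neighbours moving with it.

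Members, lists and rules were chosen with earlier results of these data known. Named were all members at least 2-fold apart, per subunit the 5 largest positive and 5 largest negative differences, members with at least 3 measured probes or a bound of at least 2-fold, and 9 genes always (DAP3, MRPL12, MRPL42, MRPS12, MRPS18A, MRPS18B, MRPS18C, MRPS30, MRPS36). Of each related list the largest difference in each direction was named. Other members were named after their values were seen. Sequences were to be chosen by their RefSeq protein. With no protein table used here, those shown were picked after their values were seen, among probes with an open reading frame. The gene summary was tested on simulated data, with planted changes above 2-fold and the same noise on every probe. That setting does not bear on smaller differences or on dim probes. Alternatives were run with limma 3.58.1 in R 4.3.3, numpy 2.4.6 and pandas 2.3.3 in Python 3.11.15: normexp background correction (offset 50), quantile and loess normalization, scaling on the median, on all probes or on 7 spike-in probes, no filter or a filter at 4 times the lowest well-above-background signal, the brightest or median probe, the matrix values, leaving out patches, subtracting the GC trend, assignment by structure and a 1.5-fold threshold.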

Additional observations from a re-analysis of the deposited data

How the results depend on the processing

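No paired analysis was possible because each group had 1 array and no test was run. The count of members at least 2-fold lower, 1 as reported, was 0 with normexp, with scaling on all probes, with the stricter filter, with the brightest probe and with the matrix values, 3 with spike-in scaling (MRPS17, MRPS2 and MRPL53) and 4 with no filter (MRPL48, MRPS17, MRPS25 and MRPS27). The count at least 2-fold higher, also 1, was 0 with the stricter filter, which measured 11 members and left MRPL9 out. With no filter it was 1 again, but MRPL20 at 1.13 in place of MRPL9 at 0.82. At 1.5-fold it was 3 in each direction, where 7.56% of genes were higher and 8.77% lower. Spike-in scaling gave medians of -0.52 for MRPL and -0.70 for MRPS genes, and the median of all genes moved to -0.60. It moved to -0.12 with no filter and to 0.10 with all probes or the matrix values.

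Of the 32 members 18 were higher as reported, 3 with spike-in scaling, 22 with the matrix values and 21 with quantile normalization, among 75 with no filter 27. MRPL genes higher went from 14 of 23 to 17 with normexp, with quantile normalization, with scaling on all probes and with the matrix values, and MRPS genes from 4 of 9 to 5 with the matrix values and 3 with the GC trend subtracted. Of 21 named members that were measured, 13 kept their sign with spike-in scaling and at least 20 under every other setting that measured all 21. The stricter filter measured 8 and all kept it. The cause of these changes was not tested, except that spike-in scaling shifts all genes alike and the filters change which probes count. The normexp offset of 50, added to every signal, likewise draws differences of dim probes toward 0 by construction. Signal over background limits the 9 members below 2 times the lowest well-above-background signal. Counting MRPS18A and MRPS18B as bacterial families, added after seeing the data, moved that MRPS median from -0.23 to -0.11.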

Other observations

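Probes of members that were measured were richer in G and C than those that were not. Among MRPL probes the median GC content was 46.7% for the 30 well above background on both arrays and 41.7% for the 55 on neither. Among MRPS probes it was 45.0% for 11 and 41.7% for 34, and over all probes of the arrays 45.0% and 43.3%. The median start in the transcript was 801 bases for measured and 809 for unmeasured MRPL probes. Of 139 member probes with a mapped position 19 span more than their own 60 bases on the genome, and 15 of the 143 share 16 bases in a row with a probe of another gene name. MRPL9, the largest positive difference, and MRPL38 at base 643 were both measured with such a junction-spanning probe. The other junction-spanning probes measured on both arrays were those of MRPL28 (0.67), MRPL30 (0.49) and MRPL23 (0.01 and 0.20). A link between junctions and differences was not tested. The MRPS33 probe that passed on the low-fertile array only also spans a junction.

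A few probes of mitochondrial ribosomal proteins carry other names in the array design and fell outside the rule. MRPL57, listed as MRP63, had 2 probes with signals of 5.41 and 4.77 on the high-fertile array and 7.78 and 6.89 on the low-fertile array. MRPL58, the peptidyl-tRNA hydrolase listed as ICT1, had 19.96 and 19.1. None was well above background on either array. A further probe of MRPL36 stood at 15.2 and 27.2, also without the flag. MRPL36 under its own name was close to the limit: 1 of 2 spots of one probe passed on the low-fertile array, with signals of 37.4 and 29.8 there and 14.6 and 14.5 on the high-fertile array.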
